A study of Mus musculus with 15 samples.

Results

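The interferon response was followed through 31 genes, made up of sensors, transcription factors, antiviral effectors and 2 Schlafen genes, on 15 arrays of mouse vascular samples with and without Notch3. The genes were taken from a list of symbols, and every probe set annotated to one of them alone was read. That gave 47 probe sets for 29 of the 31 genes, out of 45101 probe sets and 18194 named genes on the array. Isg15 lies on a probe set annotated to several symbols and is not named with a value, and Ifi44 was not analysed here. Where a gene had several probe sets, as 11 members did, the brightest over all arrays stands for it.

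Interferons are secreted proteins that cells release when they sense foreign or misplaced nucleic acid. Type I interferon acts through its receptor and the kinases Jak1 and Tyk2 on a transcription factor complex that includes Stat2 and Irf9 and binds a short promoter sequence, the interferon-stimulated response element. Interferon gamma acts on a different sequence, the gamma-activated site. Many of the induced genes are also transcribed at a low, tonic level in unstimulated tissue, blood vessels and brain included.

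The arrays fall into 4 groups, all of male C57BL6J mice 10 to 12 weeks old. FACS-sorted brain cells with the label SMC/pericyte (smooth muscle cells and pericytes, the cells that wrap vessels) came from 4 Notch3 +/- mice (replicates E, G, I and H) and 5 Notch3 -/- mice (A, B, C, D and F), with 1 array per mouse by the design text. Aorta explants gave 3 arrays of Notch3 +/- (5556, 5561 and 6166) and 3 of Notch3 -/- (5558, 5559 and 6167). Wild-type mice are not analysed here, and a genotype difference sets no intact copy of Notch3 against 1 copy. No label names an interferon, an infection or any other treatment. The sources used here do not give how the allele was disrupted or which surface markers the sort used. The labels do not say whether each aorta array is a mouse of its own, so aorta p-values reflect only how far these samples spread, which may be technical. The values are linear intensity scaled to a target of 150 on each array, and the number of arrays limits their precision.

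Notch3 matched the labels, at 2326 to 2805 in Notch3 +/- and 150.3 to 249.4 in Notch3 -/- brain arrays, and at 361.9 to 453.3 against 80.1 to 146 in aorta. Of 12 smooth muscle and pericyte markers, 11 had a mean of 50 or more in each group, and their summed intensity was 48230 to 80110 in Notch3 +/- and 34270 to 40810 in Notch3 -/- brain arrays. The sorted brain cells also carried markers of other cells. The sums were 23440 to 37810 for 13 endothelial, 27470 to 44810 for 6 oligodendrocyte and 11450 to 21950 for 16 microglia and macrophage markers, each over all 9 brain arrays. Much of the last sum was Csf1r, named after its values were seen, with means of 9697 in Notch3 +/- and 10710 in Notch3 -/- cells. Of those 16 markers, 2 had a mean under 50 in each brain group. Of 10 lymphocyte markers 8 had a mean under 50 in each brain group. Aorta carried fibroblast markers (43960 to 48310 for 10 genes) and adipocyte markers (3327 to 7387 for 6 genes). In such bulk samples, fewer cells of a type and less RNA per cell cannot be told apart.

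Promoter sequences are shown for 5 members because the Ifit genes went opposite ways between tissues, Rsad2 had one of the widest tissue differences, and Slfn5 was the 1 member that passed between genotypes. The stretches are the 160 bases before the transcription start in RefSeq's GRCm38.p6 annotation, read 5′ to 3′ along the gene, with Ifit2 shown at both of its starts. Capitals mark matches to the core of the response element, written here as GAAA, any 2 bases, GAAA, on either strand. On the opposite strand it reads TTTC, any 2 bases, TTTC.
Ifit1, chr19:34640729-34640888, plus strand: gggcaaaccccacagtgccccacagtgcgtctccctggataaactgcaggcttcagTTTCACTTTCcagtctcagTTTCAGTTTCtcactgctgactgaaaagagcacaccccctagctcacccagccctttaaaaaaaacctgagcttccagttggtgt
Ifit3, chr19:34583369-34583528, plus strand: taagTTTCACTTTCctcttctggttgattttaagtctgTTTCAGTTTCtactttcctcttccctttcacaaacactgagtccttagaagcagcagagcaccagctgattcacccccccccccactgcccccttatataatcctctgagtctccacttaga
Ifit2, chr19:34550534-34550693, plus strand: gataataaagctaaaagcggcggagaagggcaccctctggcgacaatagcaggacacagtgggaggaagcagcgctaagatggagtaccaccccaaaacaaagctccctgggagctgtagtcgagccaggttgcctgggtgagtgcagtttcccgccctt
Ifit2, chr19:34550928-34551087, plus strand: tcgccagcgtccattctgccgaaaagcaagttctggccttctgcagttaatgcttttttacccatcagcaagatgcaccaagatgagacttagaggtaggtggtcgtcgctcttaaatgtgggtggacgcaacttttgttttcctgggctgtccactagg
Rsad2, chr12:26456453-26456612, minus strand: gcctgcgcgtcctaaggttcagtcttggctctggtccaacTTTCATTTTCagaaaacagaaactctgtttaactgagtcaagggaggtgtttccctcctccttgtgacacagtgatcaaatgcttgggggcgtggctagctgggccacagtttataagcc
Slfn5, chr11:82951942-82952101, plus strand: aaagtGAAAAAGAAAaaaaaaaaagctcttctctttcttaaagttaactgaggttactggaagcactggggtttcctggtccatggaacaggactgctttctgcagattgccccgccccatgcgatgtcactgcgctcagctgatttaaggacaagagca

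Ifit1 and Ifit3 held 2 matches each in these stretches, Rsad2 and Slfn5 held 1 each, and Ifit2 held none at either start. In the full windows of 300 bases, 250 before to 50 after the start, the element was in 13 of the 26 members in the promoter table (50%) and in 3.99% of 27025 genes. By window rather than by gene that was 3.44% of 32851. The members with a match were Ddx58, Ifih1, Stat2, Isg15, Ifit1, Ifit3, Oas1a, Rsad2, Bst2, Ifitm3, Gbp2, Gbp3 and Slfn5. The gamma-activated site, searched as TTCNNNGAA, which reads the same on both strands, was in 7 of 26 members (26.9%) and in 9.55% of genes (8.3% of windows). The members were Irf1, Ifit2, Oas1a, Bst2, Ifitm3, Psmb8 and Ifi35. No search match of one motif was removed for overlap with another. A match is a description of the letters and not a measured binding site.

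Between genotypes in sorted brain cells, Slfn5 rose without Notch3 and no other member passed the test. Slfn5 belongs to the Schlafen family, whose genes are induced by type I interferon. Its intensity was 407 (E), 214 (G), 266 (I) and 296 (H) in Notch3 +/- cells and 1179 (A), 780.4 (B), 819.6 (C), 601 (D) and 601 (F) in Notch3 -/- cells. Every Notch3 -/- array lay above every Notch3 +/- array. The means were 295 ± 81.6 (SD, n = 4) and 796 ± 237 (n = 5), a 2.59-fold rise on the log2(value + 16) scale used throughout, which understates changes of dim probe sets (log2 1.37, SE 0.22, limma adjusted p = 0.0233 over 22519 probe sets). The other 25 tested members ranged from -0.40 to 0.57.

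The Slfn5 rise rested on 1 of its 3 probe sets. The second, 1456288_at, read 61.9 ± 18.9 in Notch3 +/- and 76.2 ± 7.18 in Notch3 -/- cells (log2 0.28, limma adjusted p = 0.705), and the third, 1458458_at, read 18 and 35.7 on average, too dim to be tested. Over 17 settings of the fit the difference at the brightest probe set stayed between 1.22 and 1.53 and its adjusted p between 0.00524 and 0.0999. It missed 5% without the filter on brightness and without G, I, H, B or C, with adjusted p from 0.0537 to 0.0999. In the same arrays the sum of 10 fibroblast markers was 6272 to 9855 in Notch3 +/- and 9498 to 14820 in Notch3 -/- cells, overlapping at E and F, and the part of that difference in the Slfn5 result was not tested.

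**Figure D1:**
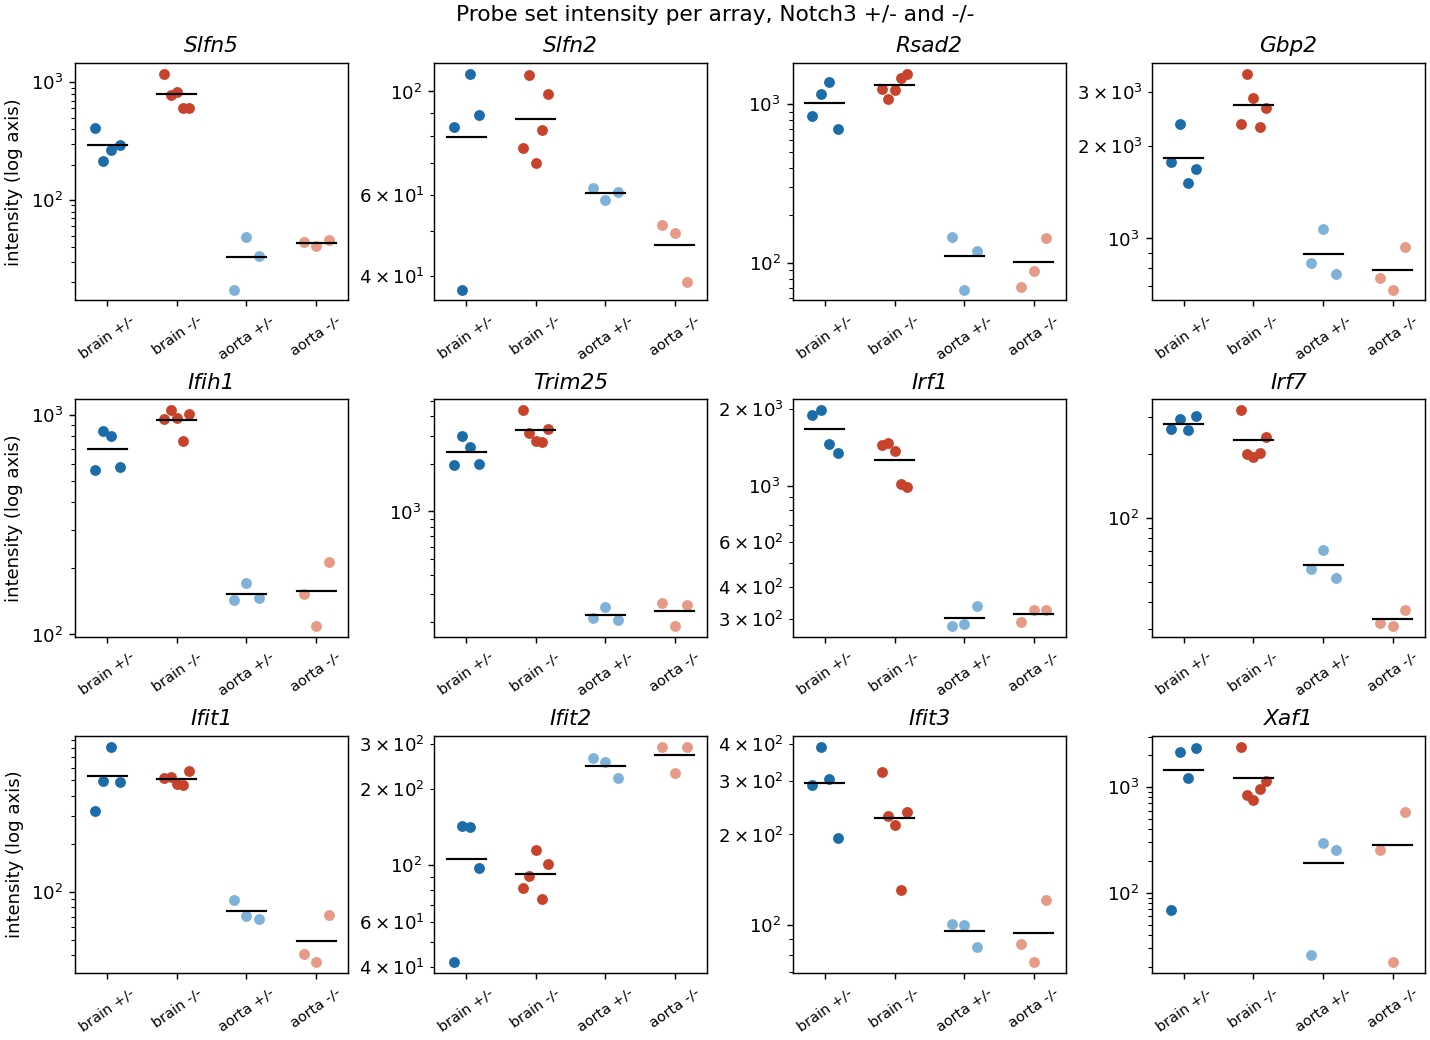
Intensity of the brightest probe set of 12 members on each array (log axis, scale set separately for each gene); points are arrays, lines are group means, and groups are brain or aorta with Notch3 +/- or -/-. Slfn5 is the panel in which the 2 brain groups are apart (214 to 407 against 601 to 1179), while most panels show brain above aorta and Ifit2 shows the reverse.

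Counted over all members, 1 of 26 tested was higher in Notch3 -/- brain cells and 0 were lower, against 0.0222% of all probe sets called higher and 0.12% called lower by limma. At an unadjusted p under 0.05 there were 6 members (Slfn5, Gbp2, Ifih1, Trim25, Parp14 and Irf1), and 2115 of all 22519 probe sets. The arrays of the genotypes did not overlap for 1 of the 26, and for 3.3% of all probe sets. The members' median difference was 0.00, with 13 above 0, and that of all probe sets was 0.01. No role group other than the Schlafen pair held a member that passed.

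No sensor of viral RNA passed. Ddx58, which encodes RIG-I, read 563 ± 116 in Notch3 +/- and 537 ± 58.3 in Notch3 -/- brain cells (log2 -0.05, SE 0.17). Ifih1, which encodes the sensor MDA5, read 561 (E), 849.9 (G), 803 (I) and 579 (H) against 961 (A), 1052 (B), 971 (C), 761 (D) and 1013 (F). Arrays E and H were the low ones, and G and I overlapped with D (log2 0.45, SE 0.17, limma adjusted p = 0.426). Trim25, a ubiquitin ligase that acts on RIG-I, read 2371 ± 492.5 and 3266 ± 652 (log2 0.46, SE 0.18, adjusted p = 0.445).

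No transcription factor passed either. Irf1, which interferon gamma induces, read 1886 (E), 1970 (G), 1455 (I) and 1346 (H) in Notch3 +/- and 1447 (A), 1473 (B), 1366 (C), 1016 (D) and 988 (F) in Notch3 -/- brain cells. Arrays I and H fell among the Notch3 -/- values (log2 -0.40, SE 0.18, limma adjusted p = 0.51). Irf7, the factor that amplifies interferon production, differed by -0.27 (SE 0.17) and Irf9 by -0.16 (SE 0.16). Stat2 was too dim to be tested, at 50.6 ± 13.9 and 35.6 ± 15.5.

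None of the antiviral effectors passed. Ifit1, Ifit2 and Ifit3 encode proteins that bind viral RNA, and they differed by 0.03 (SE 0.21), -0.07 (SE 0.27) and -0.37 (SE 0.24). The oligoadenylate synthetase genes, whose products switch on RNA decay, differed by -0.10 (Oas1a), 0.06 (Oas2) and -0.25 (Oasl2), with SE from 0.19 to 0.28. Usp18, the protease that takes the modifier Isg15 off proteins, differed by -0.10 (SE 0.23). Bst2 (tetherin, which holds virus particles at the membrane) read 131 ± 27.3 and 97.9 ± 18.9 (log2 -0.37, SE 0.19, limma adjusted p = 0.569), and Ifitm3 (which blocks viral entry) differed by 0.01 (SE 0.22). Mx1 and Mx2, GTPases that trap viral components, were dim in all groups, with group means from 10.4 to 31.1.

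Rsad2, which encodes viperin, gave different answers at its probe sets. At the brightest, 1436058_at, it read 839 (E), 1163 (G), 1388 (I) and 704 (H) against 1258 (A), 1079 (B), 1240.0 (C), 1456 (D) and 1556 (F). E and H were the low arrays, and G and I overlapped with the Notch3 -/- values (log2 0.40, SE 0.20, limma adjusted p = 0.56). At 1421009_at it read 171 (E), 249 (G), 263 (I) and 138 (H) against 352 (A), 333 (B), 355 (C), 304 (D) and 449 (F). There every Notch3 -/- array was above every Notch3 +/- array, and the difference still did not pass (log2 0.79, SE 0.20, limma adjusted p = 0.215). The third, 1421008_at, lay between 12.6 and 72.8 on all 9 brain arrays.

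Gbp2, a guanylate-binding GTPase, had the second smallest p among the members' brightest probe sets. It read 1769 (E), 2351 (G), 1517 (I) and 1683 (H) in Notch3 +/- and 2351 (A), 3436 (B), 2857 (C), 2307 (D) and 2658 (F) in Notch3 -/- brain cells. Array G stood among the Notch3 -/- values, and the difference did not pass (log2 0.57, SE 0.17, limma adjusted p = 0.324). Its other probe set gave 0.20, and the brightest one carries the x_at suffix, which the maker gives to probe sets that can also match related transcripts. Gbp3 differed by 0.09 (SE 0.19).

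None of the remaining members passed. The immunoproteasome subunits Psmb8 and Psmb9 differed by -0.17 and -0.25 and the peptide transporter subunit Tap1 by 0.08. Ifi35 differed by -0.02 and Slfn2 by 0.16. The ADP-ribosyltransferase gene Parp14 read 647 ± 201 and 879.6 ± 110.3 (log2 0.48, SE 0.20, limma adjusted p = 0.464). Xaf1, which encodes a binding partner of the apoptosis inhibitor XIAP, read 68.8 (E), 2134 (G), 1206 (I) and 2349 (H) against 2411 (A), 843 (B), 749 (C), 964 (D) and 1143 (F). E lay far below all other brain arrays, and A lay above the other Notch3 -/- arrays but near G and H. The difference of 0.40 had an SE of 0.74.

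**Figure D2:**
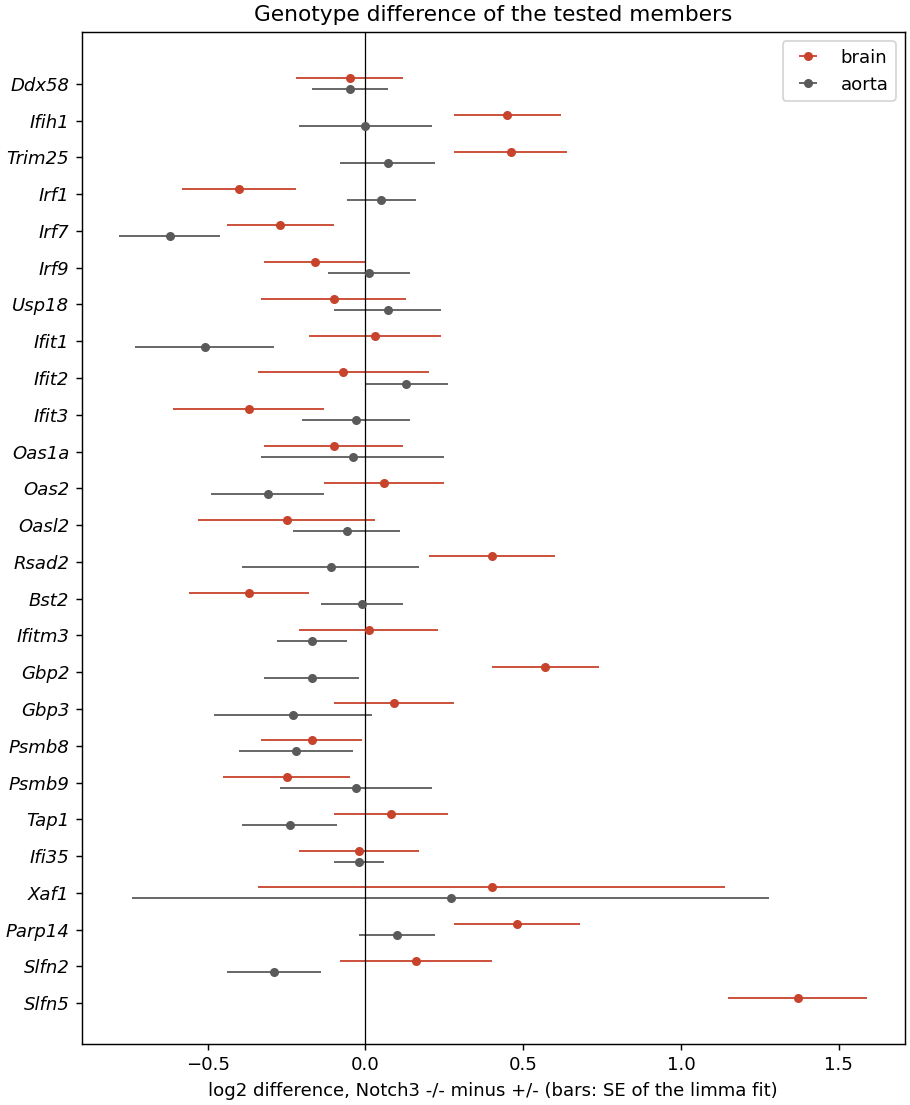
Difference between Notch3 -/- and Notch3 +/- (x axis, log2 of value + 16) for each tested member in brain cells (red) and aorta (grey); points are limma estimates and bars are 1 SE. Slfn5 at 1.37 in brain stands clear of the rest, which lie between -0.62 and 0.57 in both tissues.

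In aorta no member passed between genotypes, with 0 of 25 tested called by limma as for all probe sets (0%). At an unadjusted p under 0.05 there were 2 members, Irf7 and Ifit1, and 980 of 22519 probe sets. The members' median was -0.04 with 8 above 0 and a range of -0.62 to 0.27, and the median of all probe sets was 0.00. The members' median was -0.19 without 6167, -0.07 without 5556, -0.02 without 5558 and 0.00 without 5561 or 5559. Arrays did not overlap for 3 of the 25 members (Irf7, Oas2 and Slfn2, each lower in Notch3 -/-), and for 9.47% of all probe sets.

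Irf7 had the widest difference in aorta. It read 57.3 (5556), 70.3 (5561) and 52.3 (6166) in Notch3 +/- and 32 (5558), 30.9 (5559) and 36.9 (6167) in Notch3 -/- explants. All 3 Notch3 -/- values were below the others and all were dim, and the difference did not pass (log2 -0.62, SE 0.16, limma adjusted p = 0.923; 0.705 to 1 over 15 settings). Ifit1 read 88.4, 70.4 and 67.6 against 40.7, 36.1 and 71.6 in the same array order. Array 6167 lay among the Notch3 +/- values (log2 -0.51, SE 0.22, adjusted p = 0.999). Slfn5 was near the lower end of the scale at 17.4, 48.9 and 33.3 against 43.8, 40.9 and 46.1, and was not tested in aorta.

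The test of whether the genotype difference itself differed between tissues called 0 of 26 members, against 0.0178% of all probe sets. At an unadjusted p under 0.05 there were 2 members, and 1071 of all probe sets by limma. These were Slfn5, with a difference of 1.05 between the brain and aorta effects (SE 0.35, limma adjusted p = 0.831), and Gbp2 with 0.75 (SE 0.25, adjusted p = 0.839). The members' median was 0.16 (range -0.46 to 1.05) and that of all probe sets 0.02. It was 0.05 without aorta array 5561, 0.06 without 5559, 0.27 without 5556, 0.26 without G, 0.25 without H or C and 0.10 without E or A. The Slfn5 rise was therefore not shown to be particular to brain cells.

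Between tissues, most members were higher in sorted brain cells than in aorta explants. In Notch3 +/- mice 19 of 26 tested members were higher in brain cells and 1 was lower, against 26.5% of all probe sets called higher and 25.2% called lower. In Notch3 -/- mice 22 of 26 were higher and 1 lower, against 33.6% and 28.9%. The members' median differences were 1.74 and 1.92, and those of all probe sets 0.07 and 0.11. All 19 members that passed higher in Notch3 +/- did so in Notch3 -/- (100% of the first list and 86.4% of the second), in fits that share no array; Ifitm3, Slfn2 and Xaf1 passed in Notch3 -/- alone, and none of the 3 passed the test of a difference between genotypes in the tissue effect.

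Several things move with tissue. The brain RNA was taken from cells sorted directly into lysis buffer, and the aorta RNA from explants with Trizol, so tissue, cell sorting and extraction cannot be told apart. Endothelial markers summed to 23440 to 37810 in brain and 4192 to 5177 in aorta arrays, astrocyte markers to 9507 to 24660 and 2005 to 3326, oligodendrocyte markers to 27470 to 44810 and 343 to 794, and microglia and macrophage markers to 11450 to 21950 and 7497 to 10220. The last sum does not stand for its list. Of 14 tested microglia and macrophage markers, 3 were called higher and 3 lower in Notch3 +/- brain cells (median log2 0.07). In Notch3 -/- 3 were called higher and 4 lower (median log2 0.13). The part of these cell types in the members' tissue difference was not tested. At their brightest probe sets a few members passed the brightness filter through their brain level alone, with an aorta mean under it: Slfn5 in Notch3 +/-, and Irf7 and Oas2 in Notch3 -/-. They are included in the counts of members higher in brain cells, and the filter favoured that direction for them.

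**Figure D3:**
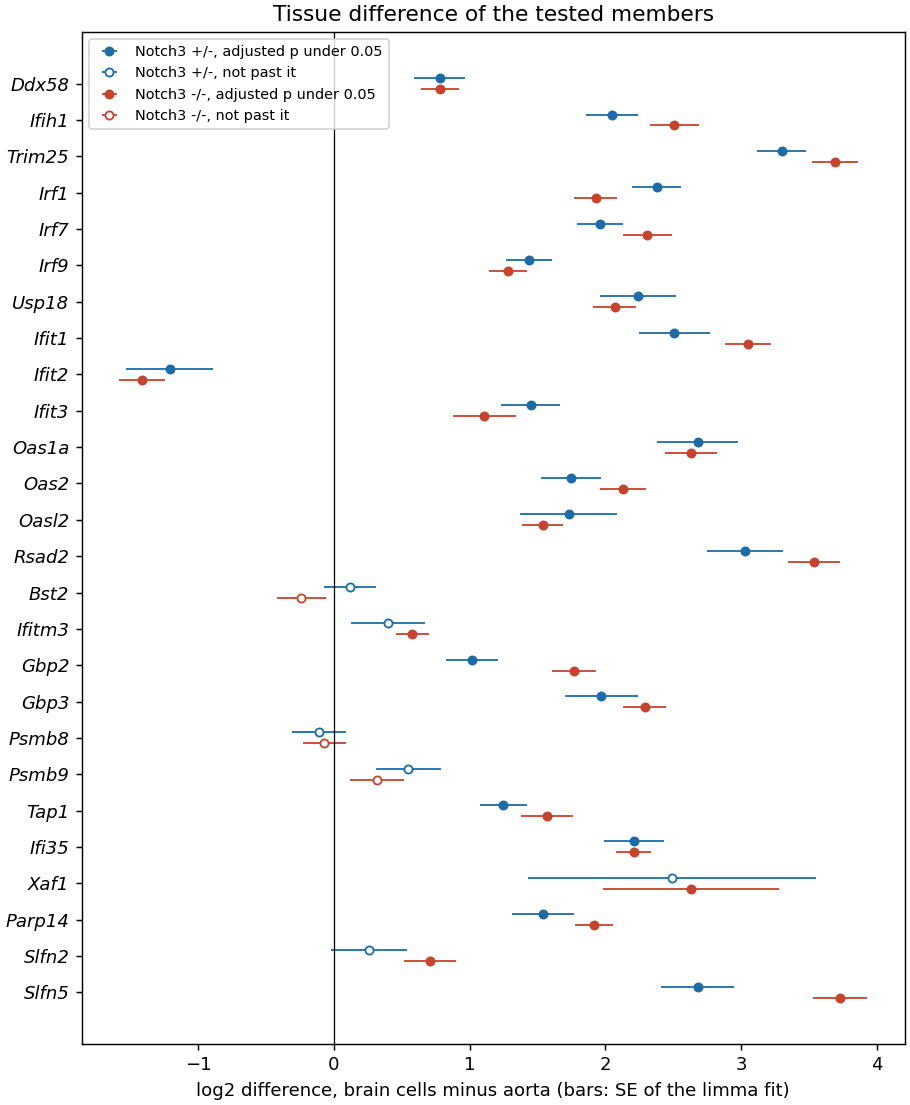
Difference between sorted brain cells and aorta explants (x axis, log2 of value + 16) for the 26 tested members in Notch3 +/- (blue) and Notch3 -/- (red); bars are 1 SE of the limma fit and filled points have an adjusted p under 0.05. Most members lie between 0.78 and 3.73, Psmb8, Psmb9 and Bst2 (open points in both genotypes) lie between -0.24 and 0.55, and Ifit2 is the member on the left at -1.21 and -1.41.

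The sensor genes Ifih1 and Ddx58 and the ligase gene Trim25 were higher in brain cells at their brightest probe sets. Trim25 read 1961 to 2988 in Notch3 +/- brain arrays and 207 to 251 in aorta, 9.82-fold apart (log2 3.30, SE 0.18, limma adjusted p = 2.25e-07), and 12.9-fold apart in Notch3 -/- (log2 3.69). The ranges are far from touching. Ifih1 was 4.15-fold higher in Notch3 +/- (log2 2.05, adjusted p = 7.95e-06) and 5.68-fold in Notch3 -/- (log2 2.51), and Ddx58 1.71-fold (log2 0.78, adjusted p = 0.00588) and 1.72-fold. Second probe sets gave 1.66 and 1.90 for Trim25, both called, and 0.53 and 0.25 for Ddx58, neither called. For Ddx58 the lowest Notch3 +/- brain array, H at 415, was still above the highest aorta array at 341.

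The tested transcription factors were higher in brain cells as well. Irf1 read 1346 to 1970 in Notch3 +/- brain arrays and 282 to 339 in aorta (log2 2.38, SE 0.18, limma adjusted p = 1.79e-06), with 1.93 in Notch3 -/-. Irf7 was higher by 1.96 and 2.31 and Irf9 by 1.44 and 1.28 in Notch3 +/- and Notch3 -/-. The Isg15 protease gene Usp18 was higher by 2.24 and 2.07, with Notch3 +/- values of 197 to 518 in brain and 43.6 to 59 in aorta. None of these genes had overlapping tissues in either genotype. The share of all probe sets without overlap between tissues was not counted, so this says little about these genes in particular. Irf7 in Notch3 -/- passed the brightness filter through its brain level alone.

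The Ifit genes split by direction. Ifit1 read 321 (E), 492 (G), 812 (I) and 489 (H) in Notch3 +/- brain cells and 88.4, 70.4 and 67.6 in aorta (log2 2.51, SE 0.26, limma adjusted p = 1.95e-05). Ifit3 read 292, 391, 305 and 195 in the same brain arrays and 101, 101 and 84.7 in aorta (log2 1.45, SE 0.22, adjusted p = 2.74e-04). Ifit2 read 41.5, 142, 141 and 97.9 in brain and 264, 254 and 219 in aorta. Every brain array was above every aorta array for Ifit1 and Ifit3, and below for Ifit2 (log2 -1.21, SE 0.32, adjusted p = 0.00857).

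Notch3 -/- arrays, which are different samples, gave the same split. The differences were 3.05 for Ifit1 (limma adjusted p = 6.24e-09), 1.11 for Ifit3 (9.77e-04) and -1.41 for Ifit2 (7.12e-06). The Notch3 -/- brain arrays spanned 73.8 to 115 for Ifit2 and the aorta arrays 230 to 292. The starts of the 3 genes lie on chromosome 19 at the promoter coordinates given above, where the stretches of Ifit1 and Ifit3 show the response element and those of Ifit2 do not. These 3 genes were picked for their directions, and other members differ. Trim25, Irf1, Irf7, Irf9, Oasl2, Tap1 and Ifi35 had no match to the response element in their windows. All were called higher in both genotypes at their brightest probe sets. Bst2 had matches to the element and was not called in either genotype. Ifit1, Ifit2 and Ifit3 were each measured with a single named probe set, so there is no second reading of the split.

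The oligoadenylate synthetase genes were higher in brain cells in both genotypes. Oas1a read 564 to 1288 in Notch3 +/- brain arrays and 67 to 153 in aorta (log2 2.68, SE 0.30, limma adjusted p = 3.01e-05), with 2.63 in Notch3 -/-. Oas2 was higher by 1.75 and 2.13 and Oasl2 by 1.73 and 1.54. Brain and aorta arrays did not overlap for any of the 3, and no share of all probe sets was counted beside this. Oas2 in Notch3 -/- passed the brightness filter through its brain level alone. Probes of close relatives such as Oas1a and its neighbours can share signal on such arrays, and no file tells how the probes were assigned.

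Rsad2 was among the widest tissue differences, and the membrane factors among the narrowest. At its brightest probe set Rsad2 read 704 to 1388 in Notch3 +/- brain arrays and 68 to 146 in aorta (log2 3.03, SE 0.28, limma adjusted p = 6.75e-06), with 3.54 in Notch3 -/-. Probe set 1421009_at gave 2.45 and 2.64, and in Notch3 +/- it passed the brightness filter through its brain level alone. The dim 1421008_at showed no such difference. It read 37.1 against 37.4 in Notch3 +/-, untested, and differed by 0.18 in Notch3 -/- (limma adjusted p = 0.542). Ifitm3 read 2218 to 5013 against 2359 to 3162 in Notch3 +/-, with overlap (log2 0.40, adjusted p = 0.231). In Notch3 -/- the values were 3228 to 4176 and 2352 to 2567, without overlap (log2 0.58, adjusted p = 8.04e-04). Bst2 differed by 0.12 and -0.24 and did not pass in either genotype, although it was called lower in Notch3 -/- brain cells when each array was centred on its median (adjusted p = 0.045).

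Guanylate-binding genes and Tap1 were higher in brain cells at their brightest probe sets, and the immunoproteasome subunits were not called there. Gbp2 was higher by 1.02 in Notch3 +/- (1517 to 2351 against 768 to 1073) and by 1.77 in Notch3 -/-. Its other probe set, 1418240_at, gave 0.43 with overlapping arrays in Notch3 +/- (limma adjusted p = 0.126) and 0.80 in Notch3 -/- (adjusted p = 1.73e-04). Gbp3 was higher by 1.97 and 2.29 and Tap1 higher by 1.25 and 1.57. At its brightest probe set Psmb8 differed by -0.11 and -0.07 (SE 0.20 and 0.16). The dimmer 1444619_x_at was higher in brain cells by 2.23 (122 against 11.2, limma adjusted p = 2.83e-04) and by 1.66 (adjusted p = 1.16e-04). In both genotypes it passed the brightness filter through its brain level alone, so those p-values are no separate evidence of the direction. The direction of Psmb8 between tissues is uncertain. Psmb9 differed by 0.55 and 0.32 (limma adjusted p = 0.0842 and 0.177). Psmb9 passed in Notch3 +/- without aorta array 5561 (adjusted p = 0.0351), which at 119 was the brightest of its 3 aorta arrays.

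Among the other induced proteins, Ifi35 gave opposite directions at different probe sets. The brightest, 1445897_s_at, read 4972 to 9905 in Notch3 +/- brain arrays and 1445 to 1586 in aorta (log2 2.21, SE 0.22, limma adjusted p = 1.10e-05), with 2.21 in Notch3 -/-. The dim probe set 1424617_at was lower in brain cells by 1.54 and 1.62 on the log2 scale, and the third was higher by 0.92 and 0.72. With brain means of 35.4 and 33.6, 1424617_at passed the brightness filter through its aorta level alone, which favoured that direction. The direction of Ifi35 between tissues is therefore uncertain. Parp14 was higher by 1.54 and 1.92 and Xaf1 differed by 2.49 (adjusted p = 0.0693) and 2.63 (adjusted p = 0.00302), with 2 dim aorta arrays, 5556 at 26 and 5559 at 21.9, beside others of 251 to 584. The second Xaf1 probe set differed by 0.43 (adjusted p = 0.543) and 1.41 (adjusted p = 1.71e-04).

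Both Schlafen members were brighter in brain cells, with different certainty. Slfn5 was higher by 2.68 in Notch3 +/- (SE 0.27, limma adjusted p = 1.33e-05) and by 3.73 in Notch3 -/- (SE 0.20, adjusted p = 3.35e-09). In Notch3 +/- it passed the brightness filter through its brain level alone, so that p-value is no separate evidence of the direction. Slfn2, a gene known for keeping T cells quiescent, read 83.7 (E), 37.4 (G), 109 (I) and 89.2 (H) in Notch3 +/- brain cells and 58.5 to 62 in aorta. Array G lay below all 3 aorta arrays, and the difference of 0.26 did not pass (adjusted p = 0.459). In Notch3 -/- its values were 70.3 to 109 and 38.9 to 51.6 (log2 0.71, adjusted p = 0.0046).

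Single brain arrays held many of the members' extreme values. Array E was the lowest of the 9 for 12 of 26 members and for 10.1% of all probe sets tested, and array I the highest for 7 and for 15.8%. Oasl2 shows the pattern, at 84.8 (E), 181 (G), 349 (I) and 232 (H) in Notch3 +/- and between 142 and 170 in all 5 Notch3 -/- arrays. Ifit1, in the same order, ran from 321 in E to 812 in I and from 470.1 to 569 in the Notch3 -/- arrays. E was not low for all members, and for Bst2 it was the highest array, at 167.

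The spread of the members was larger in the Notch3 +/- brain group. The SD of log2 values was larger in Notch3 +/- than in Notch3 -/- for 19 of 26 members and for 61.7% of all probe sets, with medians of 0.379 and 0.215 for the members and 0.316 and 0.262 for all. Without E, a choice made after the data were seen, it was larger for 18 of 26 and for 58.3%. The median in Notch3 +/- was then 0.307 for the members and 0.307 for all probe sets. E also had the lowest sums of endothelial (23440), astrocyte (9507) and neuron (612) markers among the brain arrays, and their part in its low member values was not tested. Leaving E out moved the members' median genotype difference in brain from 0.00 to -0.17.

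**Figure D4:**
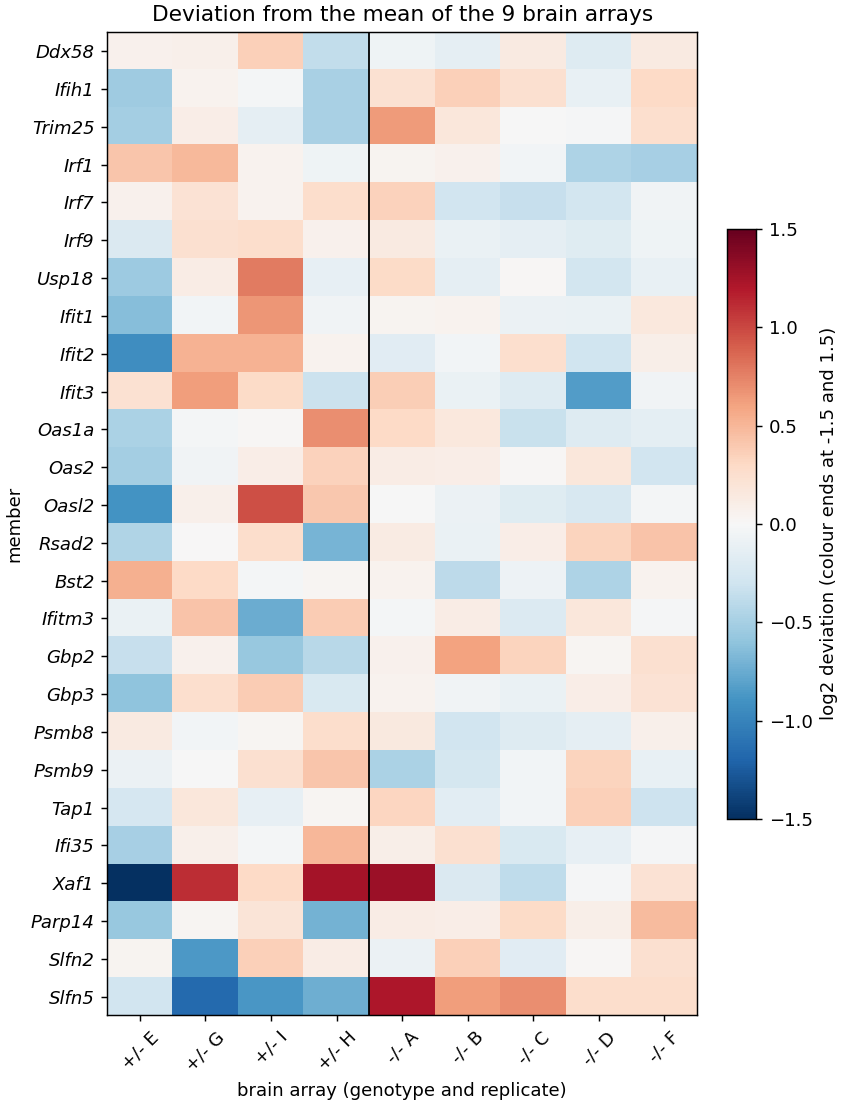
Deviation of each member from its mean over the 9 brain arrays (colour, log2 of value + 16, from -1.5 in blue to 1.5 in red); columns are arrays by genotype and replicate, and rows are the 26 members with a mean of 50 or more. Column E is the lowest array for 12 members, column I is the highest for 7, and the Slfn5 row changes colour at the genotype line.

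In aorta, array 5559 was the lowest of 6 for 11 of 25 members and for 15.9% of all probe sets. Arrays 5561 and 6167 were the highest for 8 members each, and for 16.9% and 18.0% of all probe sets. Ifih1 is an example, at 143 (5556), 171 (5561) and 146 (6166) in Notch3 +/- and 153 (5558), 109 (5559) and 213 (6167) in Notch3 -/- explants. The lowest and the highest array belonged to the same genotype. For Xaf1 the same 2 arrays read 21.9 and 584.

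Other genes of the pathway gave no call between genotypes, in either tissue or in the test between tissues. In brain cells 0 of 12 tested receptor and signalling genes, 0 of 6 nucleic acid sensing genes, 0 of 31 other antiviral genes, 0 of 7 interferon-induced GTPases, 0 of 11 antigen presentation genes and 0 of 2 other Schlafen genes passed by limma, with 0, 1, 3, 2, 1 and 0 of them at an unadjusted p under 0.05. Of all 22519 probe sets in brain, 32 passed and 2115 had an unadjusted p under 0.05 by limma. In aorta 0 of them passed, and in the test between tissues 4 did. The counts of 0 in these lists lie near those shares and say little about the pathway. The nearest was Ifitm1, a relative of Ifitm3, at 2063 in Notch3 +/- and 1068 in Notch3 -/- on average (log2 -0.94, limma adjusted p = 0.0521), with no overlap of arrays. The kinase gene Tbk1, which activates interferon production, differed by 0.62 (adjusted p = 0.324) and the proteasome activator gene Psme1 by -0.63 (adjusted p = 0.202). Slfn8 and Slfn9 differed by 0.17 and -0.15. The interferon genes Ifnb1, Ifna4 and Ifng were too dim to be tested, with group means from 4.23 to 47.4.

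Between tissues the counts of these lists are read against the shares of all probe sets, 26.5% higher and 25.2% lower in Notch3 +/- and 33.6% and 28.9% in Notch3 -/-, and several lie near them. Receptor and signalling genes numbered 6 higher and 2 lower of 12 in Notch3 +/-, and 6 and 1 in Notch3 -/-, led by Socs3, the feedback inhibitor of cytokine signalling (8966 in brain and 132 in aorta, log2 5.89, limma adjusted p = 2.04e-08, and 5.09 in Notch3 -/-). Other antiviral genes numbered 17 higher and 2 lower of 32, and 21 and 4, with Ifitm1 (4.37 and 3.65), Helz2 (2.68 and 3.15) and Uba7, the activating enzyme for Isg15 (2.37 and 2.45), at the top. Antigen presentation genes numbered 2 higher and 3 lower of 11, and 3 and 3, near those shares. The class I gene H2-D1 was lower in brain cells by 1.28 on the log2 scale in both genotypes.

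Against the same shares (26.5% and 33.6% higher), sensing genes numbered 3 higher and 1 lower of 7 in Notch3 +/-, and 4 and 1 in Notch3 -/-. The lower one was Tlr4, the receptor for bacterial lipopolysaccharide, at 28.9 in brain and 290 in aorta in Notch3 +/- (log2 -2.80, limma adjusted p = 7.93e-06). Tlr4 passed the brightness filter (41.8 in that fit) through its aorta level alone, so that p-value is no separate evidence of the direction. Other genes of these lists were not checked for this. Interferon-induced GTPases numbered 2 higher of 7 in Notch3 +/-, near the share of all probe sets, and 6 of 7 in Notch3 -/-, with Igtp at 1.60 and 1.62. Of the other Schlafen genes Slfn8 alone was tested, and it differed by -0.34 and 0.07 without passing.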

How the data were processed

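RNA of sorted brain cells and aorta explants was hybridised to Affymetrix mouse arrays, 15 µg of cRNA each, per the series' design text. Each deposited value is a linear intensity of a probe set, which the authors scaled to a target of 150. The sources used here do not give how probes were summarised. Groups came from sample titles and gene symbols from the platform annotation, updated through Entrez identifiers. The members, lists and tests were chosen with earlier results of these data known. Values were taken as log2(value + 16), 64 controls were dropped, and the 22519 probe sets at or above the median mean level were tested in each comparison with limma 3.58.1 in R 4.3.3 (intensity trend, two-sided, Benjamini-Hochberg at 5%), after a check on simulated data. From each other pathway list, up to 4 genes that passed, or up to 2 if none did, are named by smallest p; Ifnb1, Ifna4 and Ifng were chosen after their values were seen. Each array was counted as 1. Replicates of a group correlated at r from 0.932 to 0.981, which does not show whether the aorta arrays are separate mice. Alternatives were pseudocount, filter, scaling, trend, weights, fit, probe set, name series and leaving out each array.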

Additional observations from a re-analysis of the deposited data

Results flagged for a closer look

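Xaf1 in Notch3 -/- brain cells had 1 array far from the others. Replicate A read 2411, the other 4 read 749 to 1143, and the gap to the nearest was 0.763 of the group's range, above Dixon's critical value of 0.71 for 5 arrays. It was the 1 such case among 58 pairs of member and group examined, where chance gives about 1 in 20 of the groups that can be tested. The dimmer Xaf1 probe set read 142 in A and 113 to 224 in the other 4.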

How the results depend on the processing

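No paired analysis was possible because no replicate name occurs in more than 1 group. The 2 series of aorta array names, which pair no samples, were fitted as a block, and the aorta count stayed 0 and the median -0.04. Of the summary values, 163 stayed close to the main value under the alternatives and 17 moved. Only size was compared, so a median near 0 could change sign and still count as close. Of the values of single members, 2095 stayed the same. Another 124 moved, by a change of sign without a call or by a different mean over all probe sets of the gene. The count of members past 5% between genotypes in brain was 0 without the filter and 0 to 1 with 1 array left out (0 without G, I, H, B or C); it stayed 0 in aorta and in the test between tissues. Between tissues it was 20 to 21 in Notch3 +/- and 23 in Notch3 -/- with 1 array left out. The median tissue difference in Notch3 +/- was 2.02 with a pseudocount of 1, 1.3 with 64, 1.54 without the filter, 1.5 over the mean of all probe sets and 1.58 to 1.95 with 1 array left out. In Notch3 -/- it was 1.57 with a pseudocount of 64, 1.77 without the filter, 1.74 with median centring, 1.74 over the mean of all probe sets and 1.77 to 1.98 with 1 array left out. The median genotype difference was -0.17 to 0.07 in brain, -0.19 to 0.00 in aorta and, for the difference between tissues, 0.05 to 0.27 with 1 array left out; the last was 0.05 with array weights, 0.08 with a pseudocount of 64 and 0.25 over the mean of all probe sets. Median centring shifted the tissue difference of all probe sets by -0.17 and -0.19, so tissue differences are relative to the scaling. Among single members 6 values lost a call (Slfn5 in brain) and 6 gained one: Xaf1 in Notch3 +/- with array weights, with all 15 arrays or without E (adjusted p = 0.0011 to 0.0433), Ifitm3 without I (0.0206), Psmb9 without 5561 and Bst2 with median centring. The cause was not tested. The number of arrays, and values near background such as Stat2, Mx1 and Mx2, limit the precision.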
